A study of Mus musculus with 16 samples.

Results

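The mouse genes for potassium channels were followed through primary aortic smooth muscle cells of 2 genotypes in 2 culture media. The members are the genes whose symbol is Kcn, then one or more lower-case letters and a number, which takes in the subunits that form the pore and the auxiliary subunits that bind them, and takes in no antisense transcript. There were 50 members among the 20581 genes of the authors' deposited table. Of these, 36 reached 1 CPM (a count scaled to the library's total) in at least 4 of the 16 libraries and were tested. The cells were aortic smooth muscle cells of C57BL/6J mice, freed with collagenase and grown on gelatin, in 4 groups of 4 libraries. KO cells in DIAM came from the offspring of floxed Arg1 and erythropoietin receptor Cre mice, so that Arg1 was removed in the red blood cell lineage and not by design in the muscle cells that were sequenced. WT cells in DIAM came from littermates described as RBC.ARG1 wildtype. For 10 days these 2 groups were kept in DIAM, a DMEM that held 50 µg/mL of L-ascorbic acid, 1 µM of insulin and 0.1 µM of dexamethasone and was chosen to make the cells store lipid. KO cells in DMEM and WT cells in DMEM stayed in DMEM with 10% fetal bovine serum. Whether DIAM held serum, the age of the mice, which alleles the WT littermates carried and whether each biological replicate was 1 mouse are not given in the sources used here, so the p-values measure the spread between these libraries.

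Potassium channels let potassium leave or enter a cell along its gradient, and by doing so they hold or restore a negative membrane potential. In vascular smooth muscle that potential sets how much calcium enters through voltage-gated calcium channels, and so how far the vessel contracts. Voltage-gated channels open on depolarization, calcium-activated channels on a rise of calcium, inward rectifiers near the resting potential or when cellular ATP falls, and two-pore domain channels carry a standing leak.

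Total counts were 37221192 to 47626331 per library, and the 50 members together held 0.0412 to 0.0537% of them. The smooth muscle markers were present in all 16 libraries: Acta2, the smooth muscle actin, had 811, 921, 1095 and 553 CPM in KO DIAM libraries, 845, 522, 867 and 853 CPM in WT DIAM libraries, 2207, 1399.8, 2320.2 and 1268 CPM in KO DMEM libraries and 2062, 1923, 2219 and 1637 CPM in WT DMEM libraries. Arg1, which the design does not delete in these cells, had 1 to 4 counts per library in KO DIAM, 0 to 9 in WT DIAM, 2 to 49 in KO DMEM and 3 to 4 in WT DMEM libraries, so it does not check the genotype labels. Markers of other cells were there too. The 8 tested of 9 Schwann or neuronal markers (none at 0 in every library) summed with the ninth to 96.1 to 223 CPM in KO DIAM, 356 to 799 CPM in WT DIAM, 103 to 201 CPM in KO DMEM and 114 to 189 CPM in WT DMEM libraries. The 6 leukocyte markers summed to 1028 to 1355 CPM in KO DIAM, 804 to 1399 CPM in WT DIAM, 1043 to 2247 CPM in KO DMEM and 787 to 1712 CPM in WT DMEM libraries. All 16 libraries are labelled male, and Xist, the RNA that coats the inactive X chromosome of female cells, had 4041 to 12613 counts per library, which goes against that label.

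Every pore-forming member carries the signature of the potassium filter in its coding sequence, and no auxiliary member does, which is a property the choice by symbol did not use. The search was for the codons NTN, GGN, TAN and GGN in a row, or NTN, GGN, TTN and GGN in a row, in frame and on the coding strand only. All 40 members of the pore-forming classes matched at least once, all 10 auxiliary members did not, and 5.34% of 21584 coding genes matched (coding sequences of GENCODE M21, build GRCm38). The form with TA came first in 32 members and the form with TT in 8: Kcnh1, Kcnh2, Kcnh3, Kcnj8, Kcnk13, Kcnk2, Kcnt2 and Kcnu1. Of the 6 tested members with the TT form first, 0 rose and 1 fell with DIAM in KO cells and 4 rose and 2 fell in WT cells. Of the 23 tested members with the TA form first, 11 rose and 7 fell in KO cells and 14 rose and 6 fell in WT cells. Of all genes tested, 60.7% were called in KO and 55.1% in WT cells. Of the 5 two-pore domain members, 4 had 2 matches. The stretches of the members on which the results below turn are shown with the 4 codons of the match in capitals and 15 bases on each side:
Kcnc2: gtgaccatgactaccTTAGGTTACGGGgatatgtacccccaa
Kcna6: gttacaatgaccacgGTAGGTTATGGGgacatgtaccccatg
Kcns1: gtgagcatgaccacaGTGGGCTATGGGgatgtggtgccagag
Kcnma1: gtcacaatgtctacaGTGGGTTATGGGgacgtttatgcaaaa
Kcnn4: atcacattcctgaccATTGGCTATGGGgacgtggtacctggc
Kcnh2: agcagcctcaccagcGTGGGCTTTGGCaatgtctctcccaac
Kcnj15: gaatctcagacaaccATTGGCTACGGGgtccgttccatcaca
Kcnj8: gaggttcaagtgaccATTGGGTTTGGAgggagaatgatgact
Kcnk3, first match: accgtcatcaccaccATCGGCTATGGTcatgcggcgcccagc
Kcnk3, second match: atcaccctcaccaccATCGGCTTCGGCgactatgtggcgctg
Kcnk3 has a TA match followed by a TT match, while Kcnh2 and Kcnj8 have a TT match alone. The electrically silent Kcns1, which makes no working channel by itself, holds the same signature as the channels it joins. A match is a description of these letters and says nothing about the amount of RNA.

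The abundance of the members differed widely once length was taken into account. On the scale of CPM per kb of merged exons, Kcne4 stood first in all 4 groups, with 74.9 ± 5.43 in KO DIAM, 68.2 ± 4.00 in WT DIAM, 99.1 ± 13.7 in KO DMEM and 102 ± 9.83 in WT DMEM (mean ± SD, n = 4 each). Kcne4 encodes a small single-pass subunit that dampens voltage-gated channels. Kcnab1, a cytoplasmic beta subunit of voltage-gated channels, had rank 2 in both DIAM groups, at 8.70 ± 1.12 CPM per kb in KO and 9.20 ± 0.472 in WT cells, and rank 3 in both DMEM groups. In DMEM rank 2 belonged to the inward rectifier Kcnj15, at 9.14 ± 3.40 CPM per kb in KO and 8.95 ± 1.86 in WT cells, and ranks 4 and 5 to the voltage-gated Kcna5 (3.67 ± 0.675 in KO and 4.03 ± 0.846 in WT cells) and Kcnd1 (2.43 ± 0.453 in KO and 2.40 ± 0.216 in WT cells). In KO cells in DIAM ranks 3, 4 and 5 went to Kcnk3 (4.69 ± 1.04), Kcnd3 (3.80 ± 0.252) and Kcnj15 (2.46 ± 0.600). In WT cells in DIAM ranks 3 to 6 went to Kcnj15 (3.97 ± 0.707), Kcna6 (3.97 ± 1.78), Kcnd3 (3.54 ± 0.458) and Kcnk3 (1.99 ± 0.911). The first 3 of these WT values differed from each other by less than 1 SD, and the value of Kcnk3 lay below that of Kcnd3 by more than its SD. Kcnk3 and Kcnd3 ranked 32 and 29 in KO DMEM and 29 and 31 in WT DMEM among the 50 members.

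**Figure D1:**
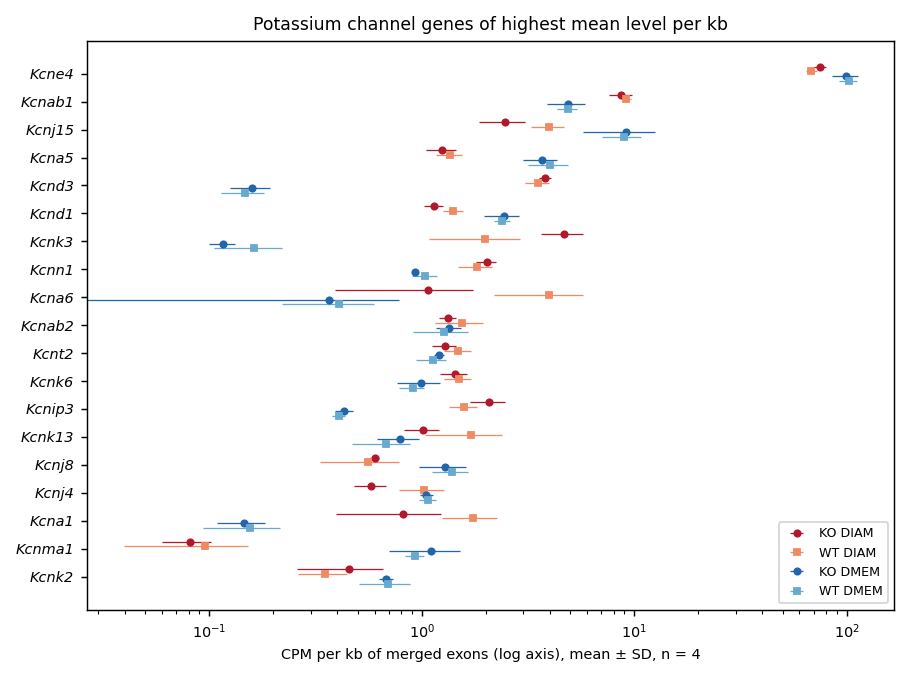
Level of 19 of the 20 members with the highest mean over the 4 groups, in CPM per kb of merged exons on a log axis. Points are means and bars SD over 4 libraries; the bar of Kcna6 in KO DMEM reaches below 0 and runs off the left edge. Kcne4 lies between 68.2 and 102 CPM per kb, and Kcnd3 and Kcnk3 show the widest distance between the DIAM and DMEM points.

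Between DIAM and DMEM, members differed in both directions in both genotypes, in KO cells at a share near that of all genes tested. The A-type channel gene Kcnd3, the leak channel gene Kcnk3 and Kcnip3, a calcium-binding partner of the Kcnd channels, were higher in DIAM in both, while the large-conductance calcium-activated channel gene Kcnma1, the inward rectifier genes Kcnj15, Kcnj2 and Kcnj8, and Kcna5 were lower. A call means an adjusted p under 0.05 in edgeR's quasi-likelihood test, with p-values adjusted (Benjamini-Hochberg) over the 14217 genes tested. DIAM against DMEM in KO cells called 23 of 36 tested members (63.9%), 13 up and 10 down, against 60.7% of all genes tested, 29.8% up and 30.8% down. In WT cells the same comparison called 31 of 36 (86.1%), 21 up and 10 down, against 55.1% of all genes tested, 27.6% up and 27.5% down. A member that passed the level filter through one medium alone was favoured to differ by that choice, which touched 10 members through DIAM and 3 through DMEM. Among the 23 members at 1 CPM in at least 4 libraries of each medium, the comparison called 15 in KO cells (7 up, 8 down; 65.2% against 59.8% of the genes passing the same way) and 19 in WT cells (11 up, 8 down; 82.6% against 54.1%). The median log2 fold change of the 36 tested members was 0.10 in KO and 0.77 in WT cells, and that of all genes tested was -0.02 in KO and -0.01 in WT cells. Because these are bulk RNA data, fewer cells of a type and less RNA per cell cannot be told apart. Markers moved with the medium as well. Of 8 smooth muscle markers 2 rose and 4 fell in KO cells and 1 rose and 4 fell in WT cells, all 5 tested adipocyte markers rose in both, and of 8 tested Schwann or neuronal markers 3 rose and 2 fell in KO cells and 6 rose and 2 fell in WT cells. Their part in the members' changes was not tested, and a fit with the level of the Schwann or neuronal markers as a covariate is given further on.

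The 2 medium comparisons share no library. Of the members, 12 rose in both genotypes (among them Kcna1, Kcna2, Kcnab1, Kcnc2, Kcnd3, Kcnip3, Kcnj12, Kcnk3, Kcnk6, Kcnn1 and Kcns3), which is 92.3% of the 13 that rose in KO and 57.1% of the 21 that rose in WT cells. Among all genes tested, 4243 rose in KO cells, 3929 rose in WT cells and 3320 rose in both. The shares to set beside those of the risen members are therefore 3320 of 4243 in KO and 3320 of 3929 in WT cells. The 3320 are 23.4% of the genes tested, which is not such a share. A further 9 members fell in both (Kcna5, Kcnd1, Kcne4, Kcnip4, Kcnj15, Kcnj2, Kcnj8, Kcnma1 and Kcns1), which is 90% of the 10 that fell in KO and 90% of the 10 that fell in WT cells. Among all genes tested, 4380 fell in KO cells, 3910 fell in WT cells and 3281 (23.1% of those tested) fell in both. The shares to set beside those of the fallen members are 3281 of 4380 in KO and 3281 of 3910 in WT cells. No member was called in opposite directions. Kcnj4 fell in KO and not in WT, Kcnk2 fell in WT and not in KO, and 9 members rose in WT and not in KO. A call in one genotype and not in the other is no test of the difference, which is given with the interaction further on. Kcnab2 and Kcnmb1 were not called in either genotype.

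**Figure D2:**
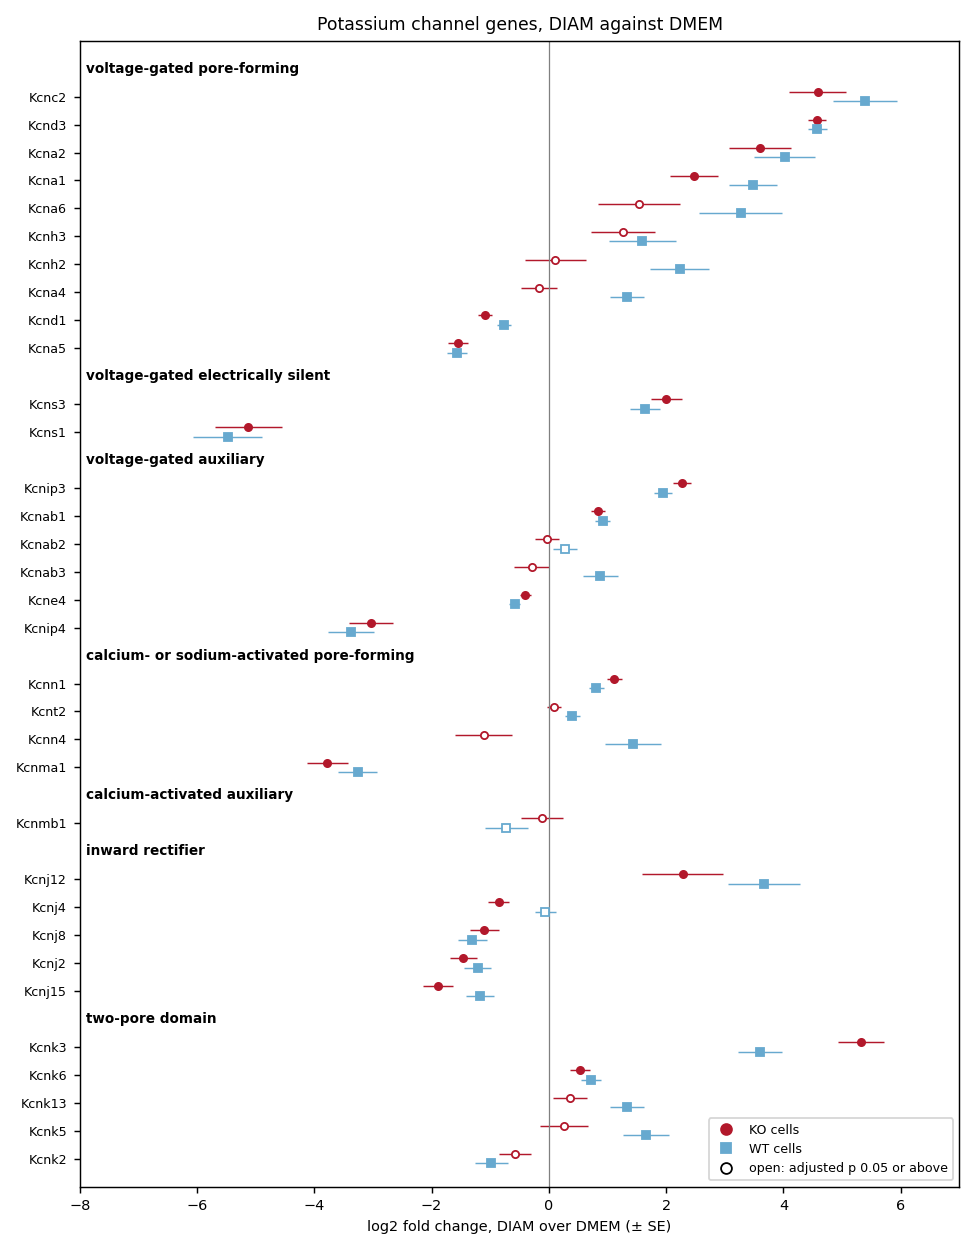
Log2 fold change of 33 of the 36 tested members, DIAM over DMEM, with its SE, in KO cells (circles) and WT cells (squares), grouped by class. Filled symbols have an adjusted p under 0.05 (edgeR). Kcnd3 and Kcna5 have almost the same position in both genotypes, and Kcnma1 and Kcns1 lie far below 0 in both. Kcnh2, Kcnn4, Kcna4 and Kcnk5 lie near or below 0 in KO cells and above 1 in WT cells.

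Among the voltage-gated pore-forming genes, of which 13 of 18 were tested, 6 rose and 2 fell in KO cells and 9 rose and 2 fell in WT cells (median log2 fold change 0.89 in KO and 1.59 in WT cells). The calls were 61.5% of those tested in KO and 84.6% in WT cells, against 60.7% and 55.1% of all genes tested. In KO cells, Kcnd3 had 38.5, 37.5, 36.9 and 33.0 CPM in DIAM, against 1.68, 1.55, 1.07 and 1.82 CPM in DMEM. In WT cells, Kcnd3 had 28.2, 34.2, 34.4 and 38.8 CPM in DIAM, against 0.995, 1.39, 1.503 and 1.78 CPM in DMEM. All 8 DIAM libraries lay above all 8 DMEM libraries, and the 2 genotypes overlapped within each medium. Kcnd3 had a log2 fold change of 4.57 ± 0.16 (SE) in KO cells (adjusted p = 2.10e-12) and of 4.58 ± 0.16 in WT cells (adjusted p = 2.38e-12). Kcnd1, which encodes another channel of the same A-type family, moved the other way. In KO cells, Kcnd1 had 5.41, 6.34, 5.62 and 6.76 CPM in DIAM, against 10.7, 15.8, 11.1 and 13.8 CPM in DMEM. In WT cells, Kcnd1 had 7.52, 8.504, 6.67 and 7.16 CPM in DIAM, against 11.2, 12.4, 13.9 and 13.2 CPM in DMEM. Every DIAM library was below every DMEM library of its genotype, with a log2 fold change of -1.09 ± 0.13 (SE) in KO cells (adjusted p = 1.74e-06) and of -0.76 ± 0.13 in WT cells (adjusted p = 8.23e-05).

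Kcna5 is a delayed-rectifier gene known from arterial smooth muscle. In KO cells, Kcna5 had 4.37, 3.43, 3.51 and 2.99 CPM in DIAM, against 10.3, 11.2, 12.6 and 7.97 CPM in DMEM. In WT cells, Kcna5 had 3.83, 3.62, 4.67 and 3.43 CPM in DIAM, against 9.45, 9.43, 13.4 and 13.8 CPM in DMEM. The DIAM and DMEM libraries did not overlap in either genotype, and the level fell by about the same amount in both, with a log2 fold change of -1.55 ± 0.17 (SE) in KO cells (adjusted p = 1.12e-06) and of -1.57 ± 0.17 in WT cells (adjusted p = 1.21e-06). Kcnc2, which encodes a fast channel best known from neurons that fire at high rates, was close to absent in DMEM. In KO cells, Kcnc2 had 1.53, 0.899, 1.56 and 1.69 CPM in DIAM, against 0, 0.0259, 0.0977 and 0.0958 CPM in DMEM. In WT cells, Kcnc2 had 1.37, 0.734, 1.21 and 1.18 CPM in DIAM, against 0, 0.0517, 0.0212 and 0.0247 CPM in DMEM. The 2 libraries without a count allow up to 0.0786 CPM (KO DMEM 1) and 0.0694 CPM (WT DMEM 1), taking 3 counts as the floor and counting error alone. Kcnc2 had a log2 fold change of 4.58 ± 0.48 (SE) in KO cells (adjusted p = 5.64e-07) and of 5.39 ± 0.55 in WT cells (adjusted p = 5.25e-07). With a group this close to 0, the size of the change is poorly fixed.

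The Shaker-type genes Kcna1, Kcna2, Kcna4 and Kcna6, known above all from axons and glia, rose with DIAM in WT cells, and Kcna1 and Kcna2 rose in KO cells too. In KO cells, Kcna1 had 1.42, 3.16, 5.18 and 5.79 CPM in DIAM, against 0.655, 0.827, 0.464 and 0.838 CPM in DMEM. In WT cells, Kcna1 had 8.29, 11.8, 6.34 and 7.08 CPM in DIAM, against 0.903, 0.310, 0.931 and 0.817 CPM in DMEM. Kcna2 encodes a partner of Kcna1 in axons. In KO cells, Kcna2 had 2.25, 4.88, 7.09 and 8.16 CPM in DIAM, against 0.314, 0.905, 0.269 and 0.359 CPM in DMEM. In WT cells, Kcna2 had 7.44, 11.5, 4.70 and 7.24 CPM in DIAM, against 0.648, 0.155, 0.804 and 0.247 CPM in DMEM. For Kcna1 and Kcna2 no DIAM library reached down to the DMEM libraries of its genotype, although KO DIAM library 1 was the lowest of the DIAM libraries for both. Kcna1 had a log2 fold change of 2.48 ± 0.41 (SE) in KO cells (adjusted p = 7.63e-05) and of 3.48 ± 0.41 in WT cells (adjusted p = 2.81e-06). Kcna2 had a log2 fold change of 3.60 ± 0.52 (SE) in KO cells (adjusted p = 2.56e-05) and of 4.02 ± 0.52 in WT cells (adjusted p = 1.00e-05). In KO cells, Kcna6 had 1.16, 5.54, 8.14 and 10.5 CPM in DIAM, against 0.445, 5.82, 1.17 and 1.29 CPM in DMEM. In WT cells, Kcna6 had 23.6, 38.4, 17.7 and 14.6 CPM in DIAM, against 3.45, 1.16, 3.30 and 1.81 CPM in DMEM. In KO cells the media overlapped for Kcna6, with KO DIAM library 1 low and KO DMEM library 2 high, whereas in WT cells they did not. Kcna6 had a log2 fold change of 3.27 ± 0.70 in WT cells (adjusted p = 0.00119) and of 1.54 ± 0.70 in KO cells, which missed the threshold (adjusted p = 0.0695). That value passed it without KO DMEM library 2 (2.69, adjusted p = 0.00358) or without KO DIAM library 1 (1.89, adjusted p = 0.0181). In KO cells, Kcna4 had 0.517, 1.09, 1.53 and 1.35 CPM in DIAM, against 1.05, 1.14, 1.66 and 1.197 CPM in DMEM. In WT cells, Kcna4 had 2.49, 4.22, 2.52 and 2.17 CPM in DIAM, against 0.857, 1.14, 1.44 and 1.09 CPM in DMEM. Kcna4, an A-type Shaker channel gene, was higher in every WT DIAM library than in any WT DMEM library (1.33 ± 0.29, adjusted p = 0.00117), and the media overlapped in KO cells (-0.17 ± 0.30, adjusted p = 0.648).

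The Kcnh genes encode channels related to the cardiac repolarizing channel hERG, which is Kcnh2 itself. In KO cells, Kcnh2 had 0.647, 1.41, 1.73 and 1.82 CPM in DIAM, against 0.838, 2.59, 0.977 and 0.790 CPM in DMEM. In WT cells, Kcnh2 had 5.69, 12.3, 3.70 and 3.86 CPM in DIAM, against 2.04, 0.801, 1.88 and 0.693 CPM in DMEM. WT DIAM libraries stood above all others for Kcnh2, with library 2 the highest, and the media overlapped in KO cells. Kcnh2 had a log2 fold change of 2.23 ± 0.50 in WT cells (adjusted p = 0.00154) and of 0.11 ± 0.52 in KO cells (adjusted p = 0.865). Kcnh3 lay near 1 CPM in DIAM. In KO cells, Kcnh3 had 1.53, 0.535, 1.12 and 1.12 CPM in DIAM, against 0.524, 0.388, 0.0733 and 0.790 CPM in DMEM. In WT cells, Kcnh3 had 1.61, 0.355, 0.719 and 0.884 CPM in DIAM, against 0.278, 0.103, 0.381 and 0.396 CPM in DMEM. The media overlapped in both genotypes. In WT cells Kcnh3 rose by 1.59 ± 0.57 on the log2 scale (adjusted p = 0.0260), a call that was lost without WT DIAM library 1 (1.15, adjusted p = 0.114), WT DMEM library 1 (adjusted p = 0.0546) or WT DMEM library 2 (adjusted p = 0.0733). Its value in KO cells was 1.27 ± 0.54 (adjusted p = 0.0538).

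The silent subunits, which alter the channels they join, split. In KO cells, Kcns1 had 0, 0.0486, 0.0822 and 0.0260 CPM in DIAM, against 2.10, 1.22, 1.34 and 1.197 CPM in DMEM. In WT cells, Kcns1 had 0.0274, 0, 0 and 0.107 CPM in DIAM, against 1.32, 1.37, 2.35 and 1.26 CPM in DMEM. DMEM libraries held between 1.20 and 2.35 CPM of Kcns1, and all 8 DIAM libraries held at most 0.107 CPM, with no count in KO DIAM library 1 (a floor of 0.0776 CPM) and in WT DIAM libraries 2 and 3 (0.0711 and 0.0770 CPM). The fitted log2 fold change was -5.13 ± 0.57 in KO (adjusted p = 1.16e-06) and -5.48 ± 0.59 in WT cells (adjusted p = 9.02e-07). In KO cells, Kcns3 had 1.76, 1.43, 2.05 and 2.16 CPM in DIAM, against 0.550, 0.440, 0.610 and 0.239 CPM in DMEM. In WT cells, Kcns3 had 2.24, 1.73, 1.49 and 1.88 CPM in DIAM, against 0.764, 0.465, 0.614 and 0.495 CPM in DMEM. Kcns3 was higher in every DIAM library than in any DMEM library, with a log2 fold change of 2.003 ± 0.26 (SE) in KO cells (adjusted p = 6.87e-06) and of 1.64 ± 0.26 in WT cells (adjusted p = 5.08e-05). The other silent members, Kcng2 and Kcng4, lay below the filter.

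The auxiliary subunits of the voltage-gated channels had no common direction. Of 6 tested, 2 rose and 2 fell in KO cells and 3 rose and 2 fell in WT cells (median log2 fold change -0.16 in KO and 0.58 in WT cells). That is 66.7% called in KO and 83.3% in WT cells, against 60.7% and 55.1% of all genes tested. In KO cells, Kcnip3 had 6.39, 8.31, 8.82 and 6.03 CPM in DIAM, against 1.55, 1.55, 1.34 and 1.70 CPM in DMEM. In WT cells, Kcnip3 had 5.23, 4.67, 5.90 and 6.62 CPM in DIAM, against 1.39, 1.45, 1.59 and 1.36 CPM in DMEM. Kcnip3 was higher in every DIAM library than in any DMEM library, with a log2 fold change of 2.26 ± 0.15 (SE) in KO cells (adjusted p = 3.29e-09) and of 1.95 ± 0.15 in WT cells (adjusted p = 2.32e-08). In KO cells, Kcnip4 had 0.284, 0.267, 0.274 and 0.416 CPM in DIAM, against 2.38, 2.79, 1.03 and 4.05 CPM in DMEM. In WT cells, Kcnip4 had 0.164, 0.142, 0.231 and 0.322 CPM in DIAM, against 2.22, 1.63, 2.77 and 2.38 CPM in DMEM. Kcnip4, a relative of Kcnip3 that binds the same channel family, was lower in every DIAM library than in any DMEM library, with a log2 fold change of -3.03 ± 0.37 (SE) in KO cells (adjusted p = 3.07e-06) and of -3.38 ± 0.39 in WT cells (adjusted p = 2.03e-06). In KO cells, Kcnab1 had 83.1, 71.2, 82.0 and 62.8 CPM in DIAM, against 49.9, 32.0, 47.6 and 37.8 CPM in DMEM. In WT cells, Kcnab1 had 82.3, 74.0, 82.4 and 77.4 CPM in DIAM, against 36.3, 42.2, 41.5 and 47.0 CPM in DMEM. Kcnab1 was higher in every DIAM library than in any DMEM library, with a log2 fold change of 0.84 ± 0.13 (SE) in KO cells (adjusted p = 2.92e-05) and of 0.92 ± 0.13 in WT cells (adjusted p = 1.42e-05). In KO cells, Kcne4 had 195, 199.97, 218 and 183 CPM in DIAM, against 263, 214, 275 and 301 CPM in DMEM. In WT cells, Kcne4 had 183, 169, 195 and 179 CPM in DIAM, against 253, 307, 277 and 251 CPM in DMEM. Kcne4 fell in both genotypes, although KO DIAM library 3 lay just above KO DMEM library 2, with a log2 fold change of -0.40 ± 0.09 (SE) in KO cells (adjusted p = 0.00126) and of -0.58 ± 0.09 in WT cells (adjusted p = 5.56e-05). Kcnab2 averaged 7.39 ± 0.675 CPM in KO DIAM against 7.53 ± 1.02 CPM in KO DMEM libraries, and 8.67 ± 2.22 CPM in WT DIAM against 7.14 ± 2.07 CPM in WT DMEM libraries, and was called in neither. Kcnab3, near 1 CPM, rose in WT cells (0.88 ± 0.30, adjusted p = 0.0207) and had a value of -0.29 ± 0.30 in KO cells (adjusted p = 0.415).

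**Figure D3:**
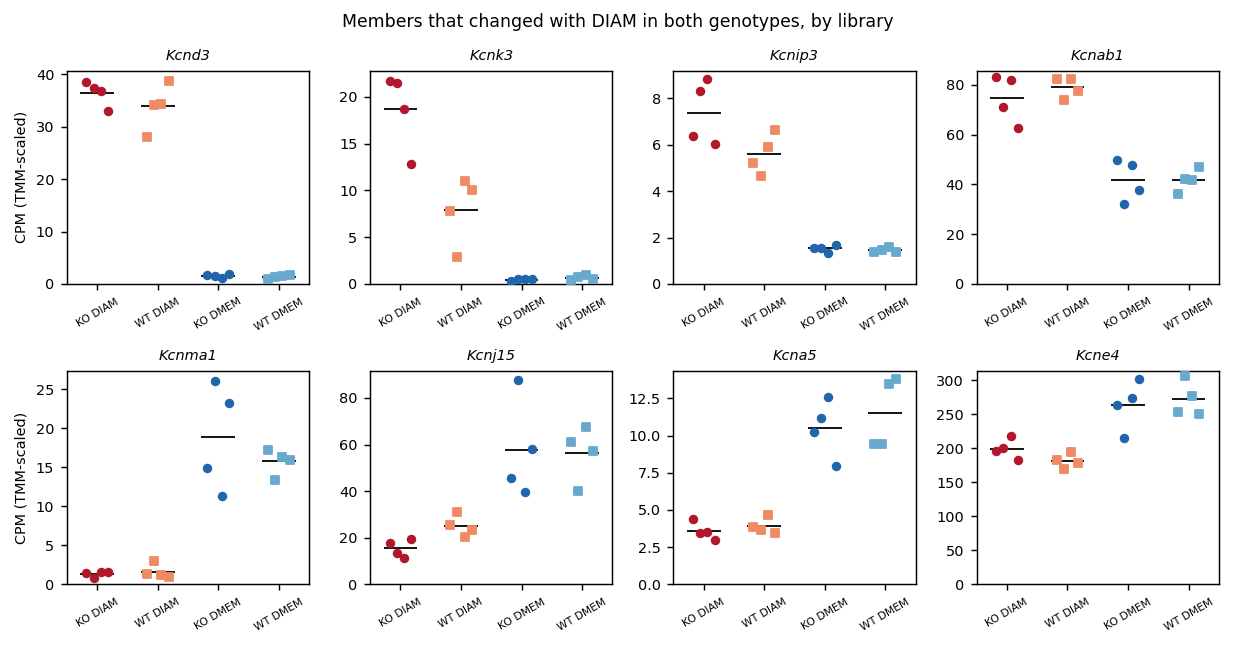
CPM of 8 members in each library, with the group means as lines, for KO DIAM, WT DIAM, KO DMEM and WT DMEM cells. Kcnd3, Kcnk3, Kcnip3 and Kcnab1 were higher in DIAM, and Kcnma1, Kcnj15, Kcna5 and Kcne4 were lower, in both genotypes.

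Kcnma1, the pore of the large-conductance calcium-activated channel that relaxes smooth muscle, had one of the largest falls among the members. In KO cells, Kcnma1 had 1.45, 0.851, 1.59 and 1.61 CPM in DIAM, against 14.9, 26.1, 11.3 and 23.2 CPM in DMEM. In WT cells, Kcnma1 had 1.34, 3.03, 1.16 and 0.965 CPM in DIAM, against 17.2, 13.4, 16.4 and 15.96 CPM in DMEM. The lowest DMEM library (11.3 CPM) stood well above the highest DIAM library (3.03 CPM), with a log2 fold change of -3.78 ± 0.35 (SE) in KO cells (adjusted p = 1.86e-07) and of -3.26 ± 0.34 in WT cells (adjusted p = 9.02e-07). Kcnmb1, the smooth muscle beta subunit of that channel, lay between 0.545 and 2.14 CPM in all libraries. In KO cells, Kcnmb1 had 0.828, 1.77, 2.03 and 0.702 CPM in DIAM, against 1.89, 1.34, 1.68 and 0.886 CPM in DMEM. In WT cells, Kcnmb1 had 0.848, 0.545, 1.31 and 1.31 CPM in DIAM, against 1.60, 1.68, 2.14 and 1.21 CPM in DMEM. The media overlapped in both genotypes, and no call was made: the log2 fold change was -0.12 ± 0.36 in KO cells (adjusted p = 0.788) and -0.73 ± 0.36 in WT cells (adjusted p = 0.101).

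Of the small- and intermediate-conductance calcium-activated channel genes, Kcnn1 rose in both genotypes and Kcnn4 in WT cells. In KO cells, Kcnn1 had 8.15, 10.4, 8.90 and 9.67 CPM in DIAM, against 4.19, 4.45, 4.20 and 4.29 CPM in DMEM. In WT cells, Kcnn1 had 6.73, 10.4, 8.21 and 8.04 CPM in DIAM, against 3.91, 5.40, 4.76 and 5.00 CPM in DMEM. The media did not overlap for Kcnn1, with a log2 fold change of 1.12 ± 0.13 (SE) in KO cells (adjusted p = 1.87e-06) and of 0.81 ± 0.13 in WT cells (adjusted p = 6.62e-05). In KO cells, Kcnn4 had 0.310, 1.12, 1.70 and 2.03 CPM in DIAM, against 1.83, 4.94, 1.47 and 2.92 CPM in DMEM. In WT cells, Kcnn4 had 5.14, 8.31, 3.52 and 2.81 CPM in DIAM, against 2.43, 1.32, 1.55 and 2.05 CPM in DMEM. For Kcnn4, known from activated lymphocytes and from proliferating smooth muscle cells, WT DIAM libraries were above WT DMEM libraries, while KO DIAM and KO DMEM libraries overlapped. Its log2 fold change was 1.43 ± 0.48 in WT cells (adjusted p = 0.0188), which missed the threshold without WT DIAM library 2 (1.06, adjusted p = 0.0756) or WT DMEM library 2 (adjusted p = 0.0540), and -1.11 ± 0.49 in KO cells (adjusted p = 0.0620). Kcnt2, a sodium-activated channel gene, averaged 10.3 ± 1.457 CPM in WT DIAM against 7.77 ± 1.25 CPM in WT DMEM libraries and rose there by 0.40 ± 0.12 on the log2 scale (adjusted p = 0.0123). In KO cells Kcnt2 averaged 8.85 ± 1.15 CPM in DIAM and 8.32 ± 0.442 CPM in DMEM, a difference of 0.09 ± 0.12 (adjusted p = 0.562).

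The inward rectifiers were the class in which falls prevailed: of 5 tested members 4 fell and 1 rose in KO cells, and 3 fell and 1 rose in WT cells (median log2 fold change -1.10 in KO and -1.17 in WT cells). The calls were 100% of those tested in KO and 80% in WT cells, against 60.7% and 55.1% of all genes tested. In KO cells, Kcnj15 had 17.9, 13.3, 11.5 and 19.5 CPM in DIAM, against 45.5, 87.8, 39.6 and 58.0 CPM in DMEM. In WT cells, Kcnj15 had 25.3, 31.0, 20.5 and 23.4 CPM in DIAM, against 61.2, 40.0, 67.5 and 57.3 CPM in DMEM. Kcnj15, a gene best known from kidney, was lower in every DIAM library than in any DMEM library, and KO DMEM library 2 was the highest of all. It had a log2 fold change of -1.89 ± 0.25 (SE) in KO cells (adjusted p = 1.21e-05) and of -1.17 ± 0.24 in WT cells (adjusted p = 8.75e-04). In KO cells, Kcnj2 had 1.5001, 1.70, 1.53 and 1.69 CPM in DIAM, against 4.27, 5.04, 2.56 and 5.82 CPM in DMEM. In WT cells, Kcnj2 had 1.89, 2.08, 1.31 and 1.61 CPM in DIAM, against 5.28, 3.28, 3.43 and 3.98 CPM in DMEM. Kcnj2, the classical strong inward rectifier of arterial smooth muscle, showed no overlap of the media, with a log2 fold change of -1.46 ± 0.23 (SE) in KO cells (adjusted p = 4.69e-05) and of -1.21 ± 0.23 in WT cells (adjusted p = 3.14e-04). In KO cells, Kcnj8 had 1.42, 1.56, 1.62 and 1.53 CPM in DIAM, against 4.22, 2.79, 3.71 and 2.44 CPM in DMEM. In WT cells, Kcnj8 had 0.848, 1.63, 1.08 and 2.12 CPM in DIAM, against 3.33, 3.46, 2.86 and 4.45 CPM in DMEM. Kcnj8, the pore of the ATP-sensitive channel of vascular muscle, likewise showed no overlap, with a log2 fold change of -1.10 ± 0.25 (SE) in KO cells (adjusted p = 0.00118) and of -1.31 ± 0.25 in WT cells (adjusted p = 3.32e-04). Abcc9, the sulfonylurea receptor that joins Kcnj8, fell in WT cells (-1.09 ± 0.21, adjusted p = 4.50e-04) and had a value of -0.35 ± 0.21 in KO cells (adjusted p = 0.158).

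Kcnj12, a close relative of Kcnj2, went the other way. In KO cells, Kcnj12 had 0.181, 0.608, 1.04 and 0.676 CPM in DIAM, against 0.0262, 0.388, 0.0488 and 0.0479 CPM in DMEM. In WT cells, Kcnj12 had 3.04, 3.15, 1.69 and 1.53 CPM in DIAM, against 0.347, 0.0517, 0.148 and 0.173 CPM in DMEM. All WT DIAM libraries exceeded 1.5 CPM, above every other library, while KO DIAM library 1 lay below KO DMEM library 2. Kcnj12 had a log2 fold change of 2.28 ± 0.69 (SE) in KO cells (adjusted p = 0.00968) and of 3.67 ± 0.62 in WT cells (adjusted p = 1.07e-04), and the KO value became 3.82 without KO DMEM library 2. In KO cells, Kcnj4 had 1.55, 1.14, 1.23 and 1.07 CPM in DIAM, against 2.28, 2.40, 2.34 and 2.04 CPM in DMEM. In WT cells, Kcnj4 had 2.52, 2.72, 1.54 and 2.04 CPM in DIAM, against 2.04, 2.25, 2.41 and 2.50 CPM in DMEM. Kcnj4, another strong rectifier, fell in KO cells without overlap (-0.86 ± 0.18, adjusted p = 7.23e-04), and its value in WT cells was -0.06 ± 0.18 (adjusted p = 0.796).

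All 5 two-pore domain members were tested, and 2 rose in KO cells, while 4 rose and 1 fell in WT cells (median log2 fold change 0.36 in KO and 1.34 in WT cells). That is 40% called in KO and 100% in WT cells, against 60.7% and 55.1% of all genes tested. In KO cells, Kcnk3 had 21.7, 21.4, 18.7 and 12.8 CPM in DIAM, against 0.367, 0.491, 0.513 and 0.479 CPM in DMEM. In WT cells, Kcnk3 had 7.74, 2.89, 11.01 and 10.0 CPM in DIAM, against 0.417, 0.723, 0.931 and 0.520 CPM in DMEM. Kcnk3, an acid-sensitive leak channel gene of pulmonary artery muscle and of brown adipocytes, lay under 1 CPM in all DMEM libraries and between 2.89 and 21.7 CPM in DIAM libraries. Kcnk3 had a log2 fold change of 5.32 ± 0.40 (SE) in KO cells (adjusted p = 1.61e-08) and of 3.60 ± 0.37 in WT cells (adjusted p = 8.12e-07). In KO cells, Kcnk5 had 0.517, 0.535, 1.29 and 1.30 CPM in DIAM, against 0.550, 1.34, 0.440 and 0.694 CPM in DMEM. In WT cells, Kcnk5 had 2.35, 3.34, 1.75 and 2.09 CPM in DIAM, against 0.810, 0.542, 1.14 and 0.495 CPM in DMEM. For Kcnk5, an alkali-sensitive leak channel gene, the media overlapped in KO cells and not in WT cells, with 0.26 ± 0.41 on the log2 scale in KO (adjusted p = 0.598) and 1.66 ± 0.39 in WT cells (adjusted p = 0.00201). In KO cells, Kcnk13 had 2.30, 3.30, 3.64 and 3.40 CPM in DIAM, against 2.49, 3.10, 1.76 and 2.49 CPM in DMEM. In WT cells, Kcnk13 had 6.54, 7.46, 2.72 and 4.61 CPM in DIAM, against 2.45, 1.60, 1.55 and 2.85 CPM in DMEM. Kcnk13, a leak channel gene of microglia, rose in WT cells (1.34 ± 0.29, adjusted p = 9.65e-04) and had a value of 0.36 ± 0.29 in KO cells (adjusted p = 0.291). Kcnk6 rose in both genotypes, by less than 1 on the log2 scale, with a log2 fold change of 0.53 ± 0.17 (SE) in KO cells (adjusted p = 0.0133) and of 0.72 ± 0.17 in WT cells (adjusted p = 0.00183). Kcnk2, a stretch-sensitive leak channel gene, averaged 1.74 ± 0.450 CPM in WT DIAM against 3.43 ± 0.925 CPM in WT DMEM libraries, and fell there (-0.98 ± 0.28, adjusted p = 0.00705), with a value of -0.57 ± 0.27 in KO cells (adjusted p = 0.0826).

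The 14 members below the filter were Kcna3, Kcnc4, Kcne5, Kcng2, Kcng4, Kcnh1, Kcnip2, Kcnj10, Kcnj14, Kcnmb4, Kcnn3, Kcnq1, Kcnq5 and Kcnu1. With the filter at 0.2 CPM in at least 4 libraries, 43 members were tested, 7 of them among these 14. Of these 7, 3 were called in KO cells (Kcng4, Kcnh1 and Kcnq5), where 52.4% of all genes tested then were called, and 4 in WT cells (Kcnh1, Kcnmb4, Kcnn3 and Kcnq5), where 47.6% were. Kcnh1 then had a log2 fold change of 1.70 ± 0.41 (adjusted p = 0.00206) in KO and 1.27 ± 0.39 (adjusted p = 0.0132) in WT cells, and Kcnq5 of -1.38 ± 0.51 (adjusted p = 0.0320) in KO and -1.27 ± 0.50 (adjusted p = 0.0472) in WT cells, with at most 32 counts of Kcnh1 and 20 of Kcnq5 in any library.

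Arg1 deletion in the red cell lineage was compared within each medium. In DIAM, Kcnk3 was higher in KO than in WT cells, and Kcnh2, Kcnn4, Kcnj12, Kcnk5, Kcna4 and Kcnj4 were lower. These were 7 of the 36 tested members (19.4%), 1 up and 6 down, against 8.38% of all genes tested, 3.43% up and 4.95% down. The number rested on single libraries: it was 2 without KO DIAM library 1 (1.93% of all genes), 0 without KO DIAM library 2 (1.25%), 1 without WT DIAM library 1 (2.1%), 1 without WT DIAM library 2 (2.22%), and 0 when the 8 DIAM libraries were fitted alone, in which case no gene of the table was called. Of these 7 members, 4 had passed the level filter through DIAM libraries alone. Among the 23 members at 1 CPM in at least 4 libraries of each medium, 3 were called (13%), against 8.59% of the genes passing the same way. In DMEM no member and no gene was called (edgeR), with 1 of 36 members and 438 of 14217 genes (3.08%) at an unadjusted p under 0.05, and DESeq2 called no member.

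In DIAM, Kcnk3 had 21.7, 21.4, 18.7 and 12.8 CPM in KO cells, against 7.74, 2.89, 11.01 and 10.0 CPM in WT cells. The KO libraries all stood above the WT libraries, of which library 2 was the lowest, with a log2 fold change of 1.24 ± 0.31 (adjusted p = 0.0268). The call was lost without KO DIAM library 1, KO DIAM library 2 or WT DIAM library 1 (adjusted p = 0.0759, 0.0855 and 0.0726 in that order). Of 5 tested adipocyte markers 1 was called for KO against WT in DIAM, Plin1, and of 8 smooth muscle markers none was. In DIAM, Plin1 had 250.1, 244, 168 and 224 CPM in KO cells, against 126, 70.6, 155 and 154 CPM in WT cells. Plin1 is the coat protein of adipocyte lipid droplets, and its log2 fold change was 0.81 ± 0.24 (adjusted p = 0.0494). The 5 adipocyte markers summed to 1939 to 2893 CPM in KO DIAM and 1330.0 to 2074 CPM in WT DIAM libraries, against 55.2 to 95.8 and 72.8 to 90.2 CPM in KO and WT DMEM libraries, and none was at 0. In DIAM, Myh11 had 169, 183, 187 and 92.5 CPM in KO cells, against 98.9, 51.3, 129 and 126 CPM in WT cells. Myh11, the smooth muscle myosin, was lowest in KO DIAM library 4 and in WT DIAM library 2, as Kcnk3 was within each genotype, and was not called (0.64 ± 0.28, adjusted p = 0.167). Whether adipocytes or smooth muscle cells have a part in the Kcnk3 difference was not tested. With the Schwann or neuronal marker level as a covariate, the log2 fold change of Kcnk3 was 0.56 (adjusted p = 0.888). That fit and its limit, a covariate without overlap between KO and WT in DIAM, are described further on.

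In DIAM, Kcnh2 had 0.647, 1.41, 1.73 and 1.82 CPM in KO cells, against 5.69, 12.3, 3.70 and 3.86 CPM in WT cells. In DIAM, Kcnn4 had 0.310, 1.12, 1.70 and 2.03 CPM in KO cells, against 5.14, 8.31, 3.52 and 2.81 CPM in WT cells. In DIAM, Kcnj12 had 0.181, 0.608, 1.04 and 0.676 CPM in KO cells, against 3.04, 3.15, 1.69 and 1.53 CPM in WT cells. For these 3 genes every KO library was below every WT library, KO DIAM library 1 was the lowest of all 8, and WT DIAM libraries 1 and 2 were the highest. The log2 fold changes were -2.19 ± 0.51 for Kcnh2 (adjusted p = 0.0209), -1.94 ± 0.49 for Kcnn4 (adjusted p = 0.0294) and -1.91 ± 0.54 for Kcnj12 (adjusted p = 0.0415). Each of these 3 calls was lost without KO DIAM library 1, KO DIAM library 2, WT DIAM library 1 or WT DIAM library 2, and that of Kcnj12 also without KO DIAM library 4, WT DMEM library 3 or WT DMEM library 4. The Kcnj12 call was lost too with no level filter (adjusted p = 0.0620) and with the filter at 0.2 CPM (adjusted p = 0.0555). Kcnk5, Kcna4 and Kcnj4 stood lower in KO cells as well. In DIAM, Kcnk5 had 0.517, 0.535, 1.29 and 1.30 CPM in KO cells, against 2.35, 3.34, 1.75 and 2.09 CPM in WT cells. In DIAM, Kcna4 had 0.517, 1.09, 1.53 and 1.35 CPM in KO cells, against 2.49, 4.22, 2.52 and 2.17 CPM in WT cells. In DIAM, Kcnj4 had 1.55, 1.14, 1.23 and 1.07 CPM in KO cells, against 2.52, 2.72, 1.54 and 2.04 CPM in WT cells. The genotypes did not overlap for Kcnk5 and Kcna4 and overlapped by 1 library for Kcnj4, where KO DIAM library 1 (1.55 CPM) lay just above WT DIAM library 3 (1.54 CPM). The log2 fold change was -1.39 ± 0.39 for Kcnk5 (adjusted p = 0.0403), -1.34 ± 0.30 for Kcna4 (adjusted p = 0.0170) and -0.82 ± 0.18 for Kcnj4 (adjusted p = 0.0175). These calls were lost without KO DIAM library 2 or WT DIAM library 2 for all 3 genes, without WT DIAM library 1 for Kcnk5 and Kcnj4, and without KO DIAM library 1 for Kcnk5. Kcna1 and Kcna6 showed the same order of libraries without passing the threshold, at -1.11 ± 0.36 (adjusted p = 0.0677) and -1.89 ± 0.65 (adjusted p = 0.0859). Kcnj15 also had all KO DIAM libraries below the WT DIAM libraries, at -0.69 ± 0.25 (adjusted p = 0.0976).

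**Figure D4:**
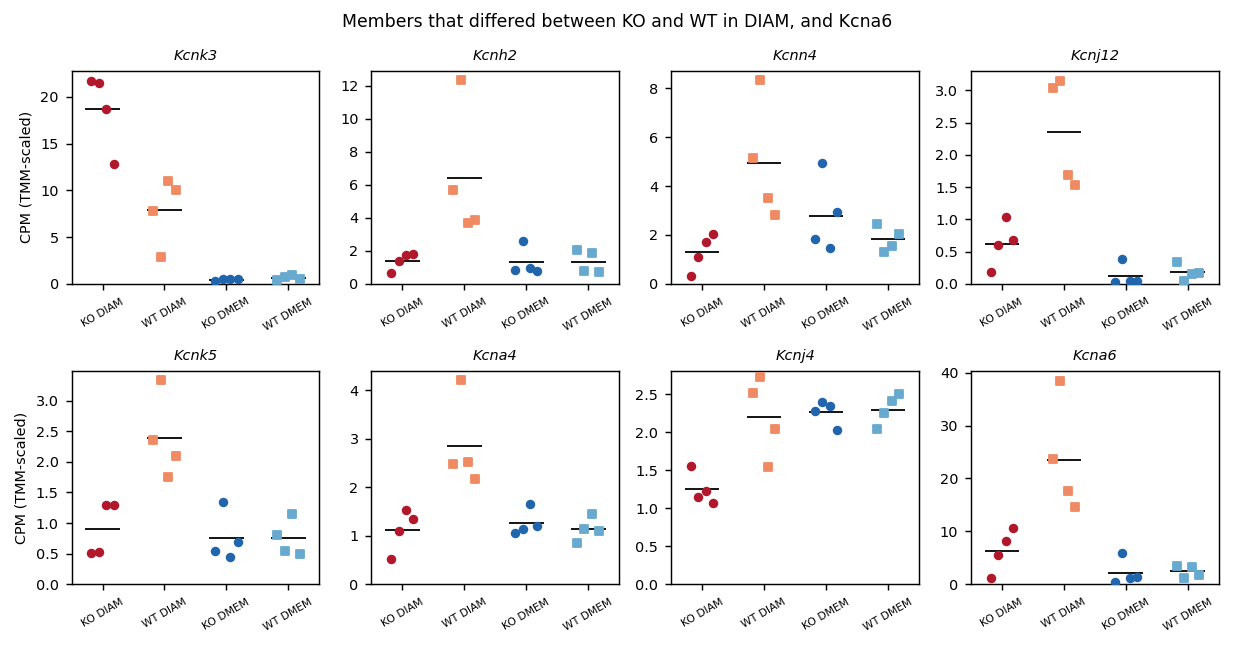
CPM in each library, with group means as lines, of the 7 members called for KO against WT in DIAM and of Kcna6, which was not called. KO DIAM libraries are above WT DIAM libraries for Kcnk3 and below them for Kcnh2, Kcnn4, Kcnj12, Kcnk5, Kcna4 and Kcna6, while the DMEM libraries of the genotypes overlap for all 8 genes.

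A marker of Schwann cells had an order of libraries like that of some of these members. Sox10, the transcription factor that defines Schwann cells, had 2.64, 10.1, 17.1 and 17.04 CPM in KO DIAM, 50.0, 69.9, 31.9 and 30.9 CPM in WT DIAM, 1.41, 13.5, 2.47 and 2.95 CPM in KO DMEM and 7.76, 1.21, 5.65 and 3.24 CPM in WT DMEM libraries. As for Kcna6, Kcnh2 and Kcnj12, WT DIAM libraries 2 and 1 were the highest of the 16, KO DIAM library 1 was the lowest of the DIAM libraries, and KO DMEM library 2 was the highest of the DMEM libraries. S100b, another Schwann cell marker, did not have this order, with 4.37, 5.83, 5.04 and 4.60 CPM in KO DIAM, 4.76, 4.45, 4.49 and 5.12 CPM in WT DIAM, 9.14, 8.17, 12.1 and 6.92 CPM in KO DMEM and 10.97, 11.004, 10.7 and 9.06 CPM in WT DMEM libraries. Between KO and WT in DIAM, Sox10 had a log2 fold change of -1.97 ± 0.67 (adjusted p = 0.0839), and 2 of the 8 tested markers were called, Tubb3 and Uchl1, both lower in KO. The mean log2(CPM + 1) of the 8 tested markers was used as a covariate, a fit chosen after seeing the data. The covariate was 2.71 to 4.09 in KO DIAM, 4.60 to 5.47 in WT DIAM and 2.65 to 3.69 in WT DMEM libraries. It thus did not overlap between KO and WT in DIAM, nor between the media in WT cells. In these comparisons a lost call or turned direction cannot tell the group from the marker level, because no libraries matched in that level. Tubb3 and Uchl1, called here, are part of the covariate. With this covariate, 0 of 36 members were called between KO and WT in DIAM, and no gene of the table was. The log2 fold change of KO against WT in DIAM then was -0.81 for Kcnj4, -0.72 for Kcna4, -0.31 for Kcnn4, -0.28 for Kcnh2, -0.14 for Kcnk5 and 0.29 for Kcnj12, the last with its direction turned.

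With the same covariate, DIAM against DMEM called 25 members in KO cells, where 59.1% of all genes tested were called, and 17 in WT cells, where 36.9% were. In WT cells the log2 fold change became -0.19 for Kcna6 (adjusted p = 0.696), -0.31 for Kcnh2 (adjusted p = 0.520), -0.08 for Kcnk5 (adjusted p = 0.894), -0.97 for Kcnn4 (adjusted p = 0.0905) and -0.22 for Kcnab3 (adjusted p = 0.712), so the direction in WT cells turned for these 5, all of them called as higher in DIAM without the covariate. In KO cells the value became -0.71 for Kcnh2 (adjusted p = 0.0167), -2.02 for Kcnn4 (adjusted p = 1.99e-05) and -0.64 for Kcnab3 (adjusted p = 0.0446), so all 3 were called as lower in DIAM with the covariate and not without it. Other WT calls were lost with the direction kept. These were Kcnj8 (-1.02, adjusted p = 0.0705), Kcne4 (-0.35, adjusted p = 0.0683), Kcna4 (0.43, adjusted p = 0.517) and Kcnj12 (0.63, adjusted p = 0.393). Kcnh3, Kcnk13, Kcnk2, Kcnk6 and Kcnt2 lost their WT call in the same way. Kcnk6 lost its KO call too, with the direction kept (0.36, adjusted p = 0.0707). Kcnd3, Kcnk3, Kcnma1 and Kcnip3 kept their direction and their call in both genotypes, as did Kcna1 and Kcna2 among others. The log2 fold change with the covariate was 4.67 in KO and 4.85 in WT cells for Kcnd3, 5.66 in KO and 4.51 in WT cells for Kcnk3, -4.10 in KO and -4.28 in WT cells for Kcnma1, and 2.28 in KO and 1.98 in WT cells for Kcnip3.

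**Figure D5:**
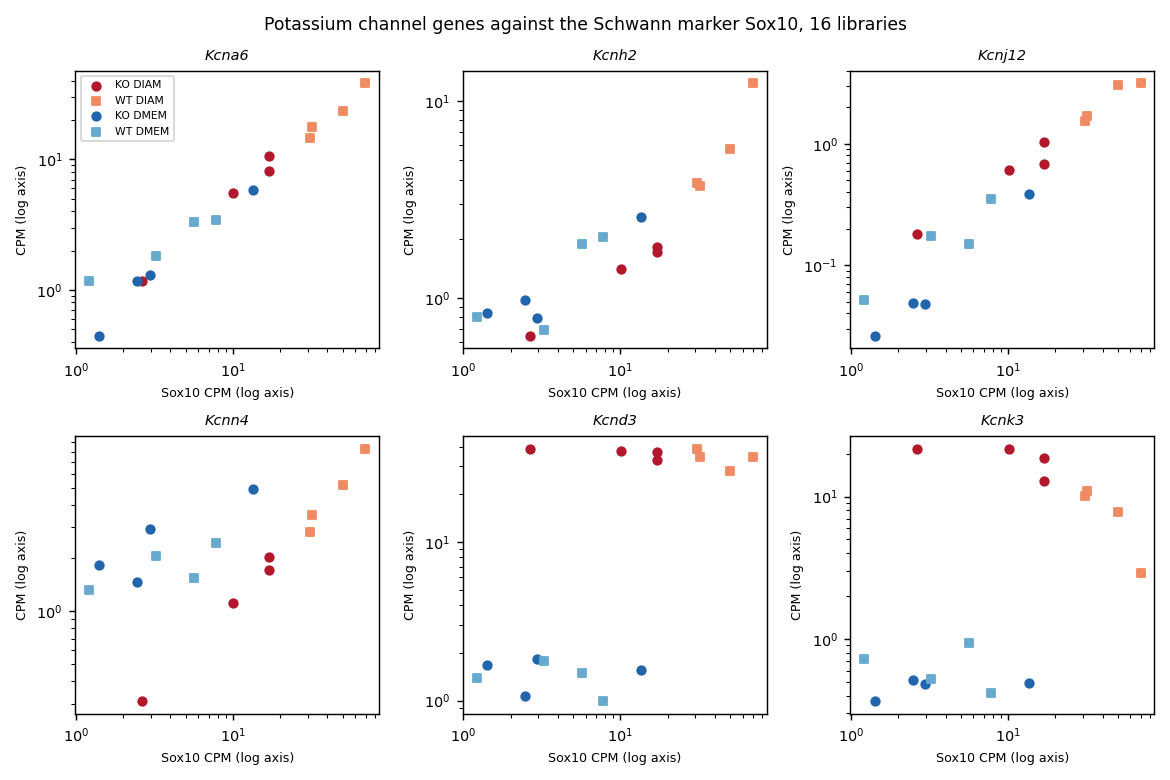
CPM of 6 members against CPM of Sox10 in the 16 libraries, both on log axes. Kcna6, Kcnh2 and Kcnj12 are higher in libraries with more Sox10 in both media. Kcnd3 and Kcnk3 separate by medium, but the media share only part of the range of Sox10. Sox10 was at most 13.5 CPM in DMEM libraries and at least 30.9 CPM in WT DIAM libraries. For Kcnn4 the KO DMEM libraries lie above the KO DIAM libraries at a similar level of Sox10.

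The interaction term, which asks whether the change with DIAM differed between the genotypes, called no member and no gene (edgeR), with 8 of 36 members and 2255 of 14217 genes (15.9%) at an unadjusted p under 0.05. The 3 members of smallest p were Kcnn4, Kcna4 and Kcnk3, and after them came Kcnj4. Their interaction log2 values, KO minus WT, were -2.54 ± 0.68 for Kcnn4 (adjusted p = 0.178), -1.4996 ± 0.42 for Kcna4 (adjusted p = 0.179) and 1.73 ± 0.54 for Kcnk3 (adjusted p = 0.186). DESeq2 called the same 3 members among 225 genes (1.58%), with adjusted p-values of 0.0242 for Kcnn4, 0.0484 for Kcna4 and 0.0434 for Kcnk3, and the authors' deposited table, in which 234 genes (1.14%) passed the same threshold, gives adjusted p-values of 0.0211 for Kcnn4, 0.0423 for Kcna4 and 0.0365 for Kcnk3.

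Genes that work beside the potassium channels were counted from lists chosen with earlier results of these data known. For comparison with their counts, DIAM against DMEM called 60.7% of all genes tested in KO and 55.1% in WT cells. Of 12 tested genes of the Sgk and Nedd4 pathway, which sets how many channels reach the surface, 6 rose and 4 fell in KO cells and 6 rose and 3 fell in WT cells (median log2 fold change 0.50 in KO and 0.20 in WT cells). Sgk1, a kinase gene induced by glucocorticoids, averaged 416 ± 20.02 CPM in KO DIAM against 32.4 ± 3.61 CPM in KO DMEM libraries, and 415 ± 26.1 CPM in WT DIAM against 31.3 ± 2.42 CPM in WT DMEM libraries, with a log2 fold change of 3.68 ± 0.08 (SE) in KO cells (adjusted p = 2.08e-14) and of 3.73 ± 0.09 in WT cells (adjusted p = 2.43e-14). Nedd4l, the ubiquitin ligase that Sgk1 restrains, fell in KO cells (-0.47 ± 0.10, adjusted p = 8.42e-04) and was lower in KO than in WT cells in DIAM (-0.59 ± 0.10, adjusted p = 0.0120). In WT cells Nedd4l averaged 31.0 ± 4.74 CPM in DIAM against 28.4 ± 0.940 CPM in DMEM. As for Sox10, KO DIAM library 1 was the lowest DIAM library (17.9 CPM), and WT DIAM libraries 2 and 1 were the highest (37.0 and 32.6 CPM). Of 12 genes of the sodium-potassium pump and its cotransporters, 8 rose and 2 fell in KO cells and 7 rose and 2 fell in WT cells (median log2 fold change 0.70 in KO and 0.39 in WT cells).

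Of 21 tested calcium and cation channel genes, 9 rose and 8 fell in KO cells and 7 rose and 8 fell in WT cells (median log2 fold change 0.12 in KO and -0.04 in WT cells). The counts of this and the following lists stand beside 60.7% of all genes tested called in KO and 55.1% in WT cells. Cacna1c, the pore of the L-type calcium channel that starts contraction, fell in both, with a log2 fold change of -1.47 ± 0.08 (SE) in KO cells (adjusted p = 5.34e-10) and of -1.38 ± 0.08 in WT cells (adjusted p = 1.32e-09), and Stim1, the calcium sensor of the endoplasmic reticulum, rose, with a log2 fold change of 2.65 ± 0.07 (SE) in KO cells (adjusted p = 1.26e-13) and of 2.50 ± 0.07 in WT cells (adjusted p = 2.44e-13). Of 5 tested chloride channel genes, 3 rose and 1 fell in KO cells and 4 rose and 1 fell in WT cells (median log2 fold change 0.24 in KO and 0.36 in WT cells). The calcium-activated chloride channel gene Ano1 fell in both, with a log2 fold change of -1.55 ± 0.22 (SE) in KO cells (adjusted p = 1.85e-05) and of -1.18 ± 0.22 in WT cells (adjusted p = 2.90e-04). Of 10 tested genes for direct partners of the members and related channels, 2 rose and 2 fell in KO cells and 1 rose and 4 fell in WT cells (median log2 fold change -0.09 in KO and -0.14 in WT cells). Hcn4, a pacemaker channel gene, fell in both, with a log2 fold change of -1.49 ± 0.24 (SE) in KO cells (adjusted p = 4.80e-05) and of -1.97 ± 0.25 in WT cells (adjusted p = 5.12e-06). Across these 60 tested genes, KO against WT in DIAM called Nedd4l and Itpr3 lower and Wnk4 higher, and 4 of the 60 were called in all, against 8.38% of all genes tested, and in DMEM none (with no gene of the whole table called).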

How the data were processed

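RNA of cultured aortic smooth muscle cells was sequenced from unstranded libraries after rRNA depletion, per the labels' protocols, in 1 labelled batch. The submitters' processing notes name FastQC, Salmon 1.9.0, DESeq2 1.46.0, R 4.4.2 and build GRCm39 (mm39), with no role or order. The authors deposited 1 value per gene and library, which the labels call TPM. These columns sum to 37221192 to 47626331 and are not whole, so they were taken as the estimated counts of the authors' quantification and rounded to whole numbers. The authors' deposited table also holds their log2 fold changes, their p-values and adjusted p-values for 3 comparisons and the interaction, and a mean of normalised counts per gene. That mean is an expression signal over all libraries, as deposited, and was not used.

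Genes at 1 CPM or more in at least 4 of 16 libraries were kept, which left 14217 of 20581. One model over the 4 groups was fitted to the counts with edgeR 4.0.16 (R 4.3.3; TMM scaling, robust quasi-likelihood, 12 residual degrees of freedom), and p-values were adjusted by Benjamini-Hochberg over all genes tested. Levels are CPM on the TMM-scaled library size. The SE was computed from the F statistic and the fold change. Alternatives were 12 other settings, among them DESeq2 1.42.0 and limma 3.58.1, and 16 fits without 1 library each. Reads of close relatives and of overlapping genes on either strand may be split by the quantification. Floors cover counting error only, while the SE, taken from the quasi-likelihood fit, includes the spread between libraries.

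Members, gene lists and tests were chosen with earlier results of these data known. Values per library are given, with exceptions, for the members named by rule. They include members called in a medium comparison with a log2 fold change of 1 or more in size. These also needed a group mean of 1 CPM or more. Named too were the 3 most abundant tested members of each class. So were the members called, or of the 3 smallest p, in a genotype comparison or the interaction. As exceptions, Kcnab2 and Kcnt2 are given as means with SD, and Kcnk6 and Kcnab3 without all of their library values. Kcnk2 and Nedd4l were named after their values were seen. Some genes and 1 coding stretch are not reported here. Coding stretches were read from the transcripts of GENCODE M21 (GRCm38) in place of the proteins or promoters first planned, and no coordinate of that build was used.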

Additional observations from a re-analysis of the deposited data

Results flagged for a closer look

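Of 132 groups of 4 libraries over the 33 members named by rule, 11 held a library whose gap to its nearest neighbour exceeded 0.829 of the range of the group, where chance flags about 1 group in 20. KO DMEM library 2 was the high library for 4 members: Kcna6 had 5.82 CPM there against 0.445 to 1.29 CPM in the other KO DMEM libraries, Kcnh2 had 2.59 CPM against 0.790 to 0.977 CPM, Kcna2 had 0.905 CPM against 0.269 to 0.359 CPM, and Kcnj12 had 0.388 CPM against 0.0262 to 0.0488 CPM. The same library had the most Sox10 of the KO DMEM libraries.

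WT DIAM library 2 was the high library for Kcna4, at 4.22 CPM against 2.17 to 2.52 CPM in the other WT DIAM libraries, and for Kcnt2, at 12.4 CPM against 9.21 to 9.70 CPM. Kcnt2 was also high in KO DIAM library 3, at 10.5 CPM against 8.05 to 8.46 CPM in the other KO DIAM libraries. Kcnip4 was high in KO DIAM library 4, at 0.416 CPM against 0.267 to 0.284 CPM, and Kcnk6 low in KO DIAM library 1, at 4.68 CPM against 6.25 to 6.496 CPM. Kcns1 was high in KO DMEM library 1, at 2.10 CPM against 1.197 to 1.34 CPM, and in WT DMEM library 3, at 2.35 CPM against 1.26 to 1.37 CPM.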

How the results depend on the processing

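The filter at 5 CPM left 16 members tested, of which 13 were called for DIAM against DMEM in KO cells (64.1% of all genes tested then), 15 in WT cells (58.2%) and 1 for KO against WT in DIAM (10.2%), and fitting the compared groups alone left 0 for KO against WT in DIAM. With the Schwann marker covariate, added after seeing the data, the counts were 17 for DIAM against DMEM in WT cells and 0 for KO against WT in DIAM. In both comparisons the covariate did not overlap between the groups. The interaction called 3 members by DESeq2 and 3 in the authors' deposited table. Leaving out 1 library at a time gave 23 to 26 calls for DIAM against DMEM in KO cells, 28 to 31 in WT cells, 0 to 9 for KO against WT in DIAM, and 0 for the others. The other settings moved no count by more than 1.5 times.

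Some values turned round, those of Kcnt2, Kcnab2 and Kcnmb1 near 0 and others, with the covariate, from larger values. The log2 fold change of Kcnt2, DIAM against DMEM in KO cells, was -0.0113 with upper-quartile scaling, -7.50e-04 with the covariate, and -0.00716 to 0.13 on leaving out 1 library. Kcnab2 in KO cells lay between -0.10 and 0.0323 and Kcnmb1 between -0.391 and 0.0899 on leaving out 1 library. With the covariate, DIAM against DMEM in WT cells was -0.19 for Kcna6, -0.17 for Kcnab2, -0.31 for Kcnh2, -0.0841 for Kcnk5, -0.97 for Kcnn4 and -0.22 for Kcnab3, and Kcnj12 in KO against WT in DIAM was 0.29. The cause was not tested.

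The replicate numbers are not stated to pair libraries, and the deviations of equal numbers between media correlated at 0.0124 to 0.319 in KO and -0.0944 to 0.267 in WT cells, so not every correlation exceeded 0.1 and the numbers were not taken as a pairing. With the number as a replicate block, 24 members were called for DIAM against DMEM in KO cells, 31 in WT cells, 5 for KO against WT in DIAM (Kcnj12 and Kcnk5 were no longer called) and 0 for the others. Of the DIAM libraries, 2 of 4 KO and 3 of 4 WT correlated best with the DMEM library of their own number.

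Many members lie near 1 CPM, and a fold change against a group close to 0 is poorly fixed in size at this depth.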
